A study of Mus musculus with 4 samples.

Results

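The genes described here encode receptors for interleukins and interferons or proteins related to these receptors. They were taken by the single gene symbol that the array's gene table pairs with a probe set: every such symbol that begins with Il, a number and r, leaving out the antagonist gene Il1rn, together with the interferon receptor genes Ifngr1, Ifngr2, Ifnar1 and Ifnar2 and the shared signal transducer Il6st. This gave 76 probe sets of 40 genes, out of 34945 probe sets of 18193 genes that carry a single symbol and are not controls. Of these, 41 probe sets of 26 genes passed a filter on dim signal, exceeding the median signal of the array on 2 or more of the 4 arrays. The other 14 genes had no probe set that passed. Il2rg, Il23r and Il1rl1 were not analysed here.

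Signals were read in sorted gamma delta intraepithelial lymphocytes, T cells that live among the epithelial cells of the gut lining, from colons of C57b/6 mice raised conventionally. In the DSS group (2 samples) the mice received 2% dextran sulfate sodium, which injures the colonic epithelium, over 5 days and then had 3 days to recover with plain water. In the untreated group (2 samples) the mice received nothing. The RNA was amplified, and each sample was read on 1 array. The labels give no age or sex and do not say whether replicates were separate mice, pools or sorts, so p-values here measure only the spread between samples, which may be technical.

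Interleukin and interferon receptors are built from a ligand-binding chain and a signalling chain, and several chains are shared between receptors. Class I and class II chains signal through JAK kinases and STAT factors, while the IL-1, IL-18 and IL-17 receptor families signal through adaptor proteins towards NF-kB. Intraepithelial lymphocytes are known to depend on IL-15 and to respond to IL-7, and gamma delta T cells are known to respond to IL-1, IL-18 and IL-23.

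Array and cell markers differed between the groups. The SD between replicates over the 26 receptor genes was 0.56 log2 in DSS samples and 0.76 in untreated samples. The hybridisation controls, transcripts added to each sample, had geometric mean signals of 6308 and 6192 on the DSS arrays and 44427 and 29832 on the untreated arrays, so array processing and treatment cannot be told apart. T cell markers were above the array median in every sample, with 2 of 15 higher and 5 lower without overlap, and summed signals of 317394 and 323022 in DSS samples and 580162 and 428218 in untreated samples. Of 17 macrophage and dendritic cell markers, 16 were higher on both DSS arrays and 0 lower, with summed signals of 102670 and 122544 in DSS samples and 31990 and 10498 in untreated samples. Neutrophil markers (7 genes, 0 higher and 2 lower) summed to 1228 and 2184 in DSS samples and 1973 and 1767 in untreated samples. Colonic epithelial markers (14 genes, 3 higher and 2 lower) summed to 17397 and 15105 in DSS samples and 15572 and 11484 in untreated samples. Mast cell and basophil markers (6 genes, 2 higher and 1 lower) summed to 3137 and 2755 in DSS samples and 1621 and 1982 in untreated samples. Of these sums Kit alone gave 1967 and 1942 in DSS samples and 751 and 798 in untreated samples. Over all genes tested, 17.2% were higher and 23.8% lower without overlap. Only markers that passed the filter were tested. These were 17 of 19 macrophage and dendritic cell, 7 of 12 neutrophil, 6 of 10 mast cell and 14 of 15 epithelial markers on the array. Some passed only through the group where they were higher. Mrc1, C1qc, Siglec1, Hdc and Cdx2 passed on the DSS arrays alone, and Mmp8 and Mpo on the untreated arrays alone. They are in the marker counts above and support nothing. No tested marker was at 0. The part of these markers in the receptor differences was not tested, and in bulk samples fewer cells of a type and less RNA per cell cannot be told apart.

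In the deposited values the log2 difference of the receptor genes, DSS minus untreated, was positive for 13 and negative for 13, between -1.66 and 1.82, with a median of -0.03 beside -0.07 over all 12424 genes tested. Differences are on the scale of log2(signal + 32), which understates those of dim genes. Signal summed over the 26 genes was 20984 and 18566 in DSS samples and 19824 and 21131 in untreated samples. The summed signals of the groups overlapped.

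Limma with Benjamini-Hochberg adjustment over all genes called 0 of the 26, where it called 0% of all genes, and the smallest adjusted p of a receptor gene was 0.648. At an unadjusted p under 0.05 there were 3 of the 26 (11.5%), where 7.52% of all genes reached it: Il10rb was higher, and Il21r and Il17rb were lower. Both DSS arrays lay above both untreated arrays for 6 receptor genes (23.1%, against 17.2% of all genes) and below them for 5 (19.2%, against 23.8% of all genes). On its brightest kept probe set, no receptor gene was at least 2-fold higher on both DSS arrays, where 2.18% of all genes were. Nor was any at least 2-fold lower, where 2.38% were. These shares lie near those of all genes. Il10ra, Il1r2 and Il17rb are in these counts although they passed the filter only through the group where they were higher. Il10ra and Il1r2 passed on the DSS arrays, and Il17rb passed on the untreated arrays. The untreated arrays had the higher medians, so the DSS values of Il17rb had to be lower. For Il10ra and Il1r2 the filter favoured higher DSS values, though overlap was still possible. All of these genes therefore support nothing.

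Scaling moved the counts. After quantile normalization 5 receptor genes were higher and 2 lower without overlap, and after scaling to a common median 7 were higher and 2 lower. Quantile normalization gave 13 positive and 13 negative differences, and common-median scaling gave 17 positive and 9 negative. The median over all genes became 0.01 and 0.25 under these scalings, and the receptor median was 0.04 above that of all genes as deposited, 0.003 below it with quantile normalization, and 0.05 above it with common-median scaling. The higher genes made up 47.8% of all genes 2-fold apart in the deposited values. This share was 61.6% with quantile normalization, and common-median scaling gave 75.4%.

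**Figure D1:**
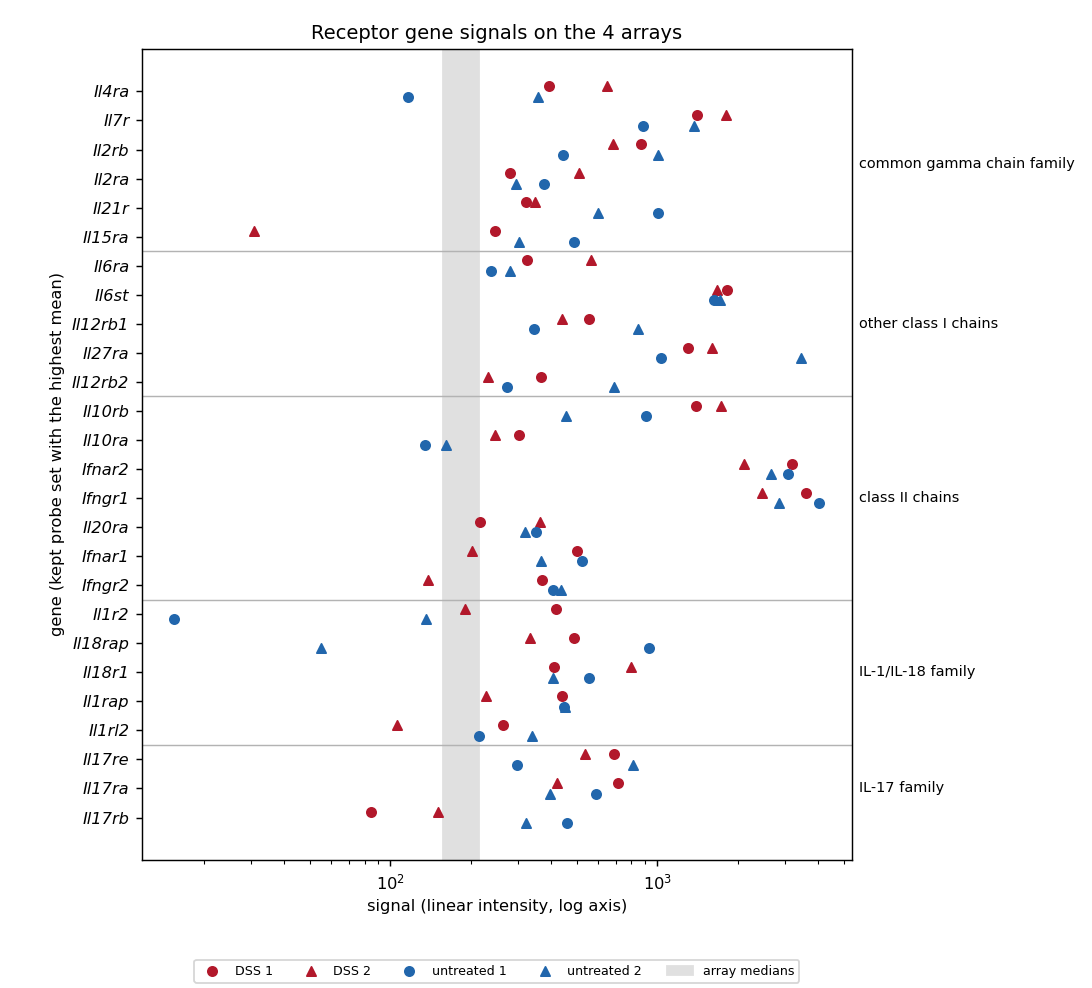
Signal of each of the 26 tested receptor genes on the 2 DSS arrays (red) and the 2 untreated arrays (blue), as linear intensity on a log axis, by receptor family. The grey band spans the 4 array medians; both DSS points lie right of both untreated points for 6 genes, such as Il10rb, and left of them for 5, such as Il21r.

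In the common gamma chain family, whose receptors serve IL-2, IL-4, IL-7, IL-9, IL-15 and IL-21, 6 of 7 genes passed the filter. Of these, 2 were higher and 2 lower without overlap, and their median difference was 0.18. For this and each family below, the shares over all genes were 17.2% higher and 23.8% lower without overlap. Each family is too small for its counts to be set apart from those shares. Il7r, the alpha chain of the IL-7 receptor, had 1408 and 1809 on the DSS arrays and 884 and 1376 on the untreated arrays. The lower DSS value was close to the higher untreated value, and the log2 difference was 0.52 ± 0.42 (SE, n = 2 per group; limma adjusted p = 0.733). Il2rb, the signalling chain shared by the IL-2 and IL-15 receptors, had 871 and 685 in DSS samples and 445 and 1008 in untreated samples. The untreated arrays enclosed the DSS arrays, and the difference was 0.19 with a 95% interval of -0.98 to 1.36. The second kept probe set of Il2rb gave 0.17. Il2ra, the alpha chain of the high-affinity IL-2 receptor, overlapped on its brighter probe set at 0.17 and was higher without overlap on the other at 0.38, a probe set that passed the filter on the DSS arrays alone.

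Il15ra, which binds IL-15 and presents it to neighbouring cells, had 246 and 30.7 on the DSS arrays and 486 and 304 on the untreated arrays. Signal was lower on both DSS arrays, by far on the second, and the log2 difference was -1.66 ± 0.83 (limma adjusted p = 0.652). It was -0.58 without that second DSS array. The other Il15ra probe set did not pass the filter and gave 0.61 with overlap. Il15ra is next to Il2ra among the protein-coding genes of the RefSeq annotation.

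Il4ra, the chain that binds IL-4 and also serves IL-13, had 392 and 649 in DSS samples and 117 and 357 in untreated samples on its brighter probe set. The DSS arrays were both above the untreated ones, at 1.16 ± 0.61 (limma adjusted p = 0.663), and without the first untreated array the difference was 0.47. The other kept probe set of Il4ra ran the opposite way, with 95.1 and 178 in DSS samples and 267 and 599 in untreated samples, a difference of -1.41 without overlap. Its name ends in _x_at, which marks possible binding of related transcripts, and the mean of both gave -0.13. Il9r, the IL-9 receptor, did not pass the filter.

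Il21r, the receptor for the T cell cytokine IL-21, had 321 and 348 on the DSS arrays and 1009 and 602 on the untreated arrays. The DSS arrays were close to each other and below both untreated arrays, with a log2 difference of -1.15 ± 0.44 (limma adjusted p = 0.648). With 1 array left out at a time it lay between -1.51 and -0.79. Il21r is next to Il4ra in the RefSeq annotation and has 1 probe set on the array.

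Promoters are shown for Il21r and Il17rb, the receptor genes with an unadjusted p under 0.05 that were lower, and for Il1r2, with the largest positive difference of the 26. Il10rb, which also had such a p and was higher, had no promoter sequence in the source used. Both Il17rb and Il1r2 passed the filter through 1 group alone, as given above. Each runs from 250 bases before to 50 bases after the start of the gene, 5′ to 3′ on its own strand, from RefSeq in build GRCm38.p6. Capitals mark a match, on either strand, to the STAT site GAS (TTCNNNGAA), the interferon-stimulated response element ISRE (GAAA, any 2 bases and GAAA again) or the AP-1 site (TGANTCA). The windows are chr7:125603179-125603478 on the + strand for Il21r, chr14:30008847-30009146 on the - strand for Il17rb and chr1:40085843-40086142 on the + strand for Il1r2.
Il21r: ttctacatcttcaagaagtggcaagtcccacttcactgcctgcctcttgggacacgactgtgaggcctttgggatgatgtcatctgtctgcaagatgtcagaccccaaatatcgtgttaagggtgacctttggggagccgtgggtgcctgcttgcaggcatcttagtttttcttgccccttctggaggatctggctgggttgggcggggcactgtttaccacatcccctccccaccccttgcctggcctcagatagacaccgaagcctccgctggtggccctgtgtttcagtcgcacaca
Il17rb: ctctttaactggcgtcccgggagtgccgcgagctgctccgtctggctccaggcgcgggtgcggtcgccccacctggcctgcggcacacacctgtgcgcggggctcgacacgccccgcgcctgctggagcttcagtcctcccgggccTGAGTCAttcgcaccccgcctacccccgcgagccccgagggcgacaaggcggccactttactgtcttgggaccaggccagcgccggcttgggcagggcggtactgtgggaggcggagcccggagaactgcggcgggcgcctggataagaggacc
Il1r2: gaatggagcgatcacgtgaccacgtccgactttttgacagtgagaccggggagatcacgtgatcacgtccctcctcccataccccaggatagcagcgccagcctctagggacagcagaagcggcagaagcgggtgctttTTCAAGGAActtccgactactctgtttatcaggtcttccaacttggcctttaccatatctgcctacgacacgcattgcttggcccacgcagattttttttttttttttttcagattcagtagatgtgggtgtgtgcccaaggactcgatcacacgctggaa

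The window of Il21r held none of these letters, that of Il17rb held an AP-1 match at position -104 from the start, and that of Il1r2 held a GAS match at position -111. The table had 37 promoters for 33 of the receptor genes. A GAS match was in 7 of them (18.9%) and in 8.3% of all 32851 promoters. An AP-1 match was in 6 (16.2%, against 7.81% of all promoters) and an ISRE match in 1 (2.7%, against 3.44%). A match of letters is not a measurement of binding.

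Of the other class I chains, 5 of 10 genes passed the filter, with 1 higher and 0 lower without overlap and a median difference of -0.13. Il6st, the gp130 chain that transduces signals of IL-6 and its relatives, had 1833 and 1678 in DSS samples and 1635 and 1713 in untreated samples. The 4 values lay close together and overlapped, with a difference of 0.07 and a 95% interval of -0.82 to 0.95. The other kept probe sets of Il6st gave -0.24 and -1.23, both with overlap. Il6ra, the IL-6 binding chain, had 325 and 567 on the DSS arrays and 239 and 279 on the untreated arrays. Signal was higher on both DSS arrays, at 0.67 ± 0.49 (limma adjusted p = 0.717), and the second kept probe set gave 0.99 with overlap.

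Il27ra, the IL-27 binding chain, had 1307 and 1598 in DSS samples and 1035 and 3466 in untreated samples. The untreated arrays enclosed the DSS arrays, and the difference was -0.39 over all 4 arrays. It was -1.24 without the first untreated array (limma adjusted p = 0.0138) and 0.47 without the second. The IL-12 receptor chains Il12rb1 and Il12rb2 overlapped as well, at -0.13 and -0.53. Il3ra, Il5ra, Il13ra1, Il13ra2 and Il31ra, chains for IL-3, IL-5, IL-13 and IL-31, did not pass the filter.

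Of the class II chains, which serve IL-10, IL-20, IL-22 and the interferons, 7 of 10 genes passed, with 2 higher and 1 lower without overlap and a median difference of -0.19. Il10rb, the signalling chain shared by the IL-10 and IL-22 receptors, had 1398 and 1731 on the DSS arrays and 904 and 455 on the untreated arrays. The DSS values were well above both untreated values, at 1.23 ± 0.46 (limma adjusted p = 0.648). With 1 array left out at a time the difference lay between 0.76 and 1.71, with an adjusted p of 0.00329 without the first untreated array. The second kept probe set of Il10rb had 90.4 and 255 in DSS samples and 230 and 424 in untreated samples, overlapping at -0.88, and the mean of both probe sets gave 0.18.

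Il10ra, the chain that binds IL-10, had 302 and 247 on the DSS arrays and 135 and 161 on the untreated arrays. Signal was higher on both DSS arrays, at 0.77 ± 0.59 (limma adjusted p = 0.725), and both untreated values were below the median of their array, so the gene passed the filter on the DSS arrays alone. The probe set ends in _x_at. The other Il10ra probe sets did not pass the filter and gave 1.07 and -0.62. Macrophages are also known to express both chains of the IL-10 receptor and Il4ra, and macrophage markers were higher on the same arrays, as given above. Whether such cells gave these signals was not tested.

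The binding chains of the interferon receptors overlapped between the groups on their brightest probe sets. Ifngr1, the binding chain for interferon gamma, had 3599 and 2464 in DSS samples and 4055 and 2870 in untreated samples. The groups overlapped, at -0.19 with a 95% interval of -1.17 to 0.78. Ifnar2, the binding chain for type I interferons, had 3200 and 2115 in DSS samples and 3095 and 2671 in untreated samples on its brightest probe set, which ends in _x_at. The groups overlapped at -0.14. Another Ifnar2 probe set had 1290 and 845 in DSS samples and 619 and 599 in untreated samples, higher without overlap at 0.75, and the last gave -0.44 with overlap. Ifnar1, the partner chain of Ifnar2, had 499 and 201 in DSS samples and 523 and 366 in untreated samples. The groups overlapped at -0.42, and the second kept probe set gave -0.01.

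Ifngr2, the signalling chain for interferon gamma, had 369 and 139 in DSS samples and 408 and 436 in untreated samples on its brighter probe set. Both DSS values were the lower, at -0.80 ± 0.56 (limma adjusted p = 0.715). On the other kept probe set Ifngr2 had 182 and 370 in DSS samples and 15.3 and 25.0 in untreated samples. There signal was at least 2-fold higher on both DSS arrays, at 2.50 (limma adjusted p = 0.676 with every kept probe set tested by itself). However, this probe set passed the filter on the DSS arrays alone and its untreated values were far below the array medians.

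Ifnar2, Il10rb, Ifnar1 and Ifngr2 lie in this order in the RefSeq annotation with 0 protein-coding genes between them. On their brightest probe sets their differences were -0.14, 1.23, -0.42 and -0.80. Il20ra, a chain of the IL-20 receptor, overlapped at -0.22. Il20rb, Il22ra1 and Il22ra2, named for IL-20 and IL-22, did not pass the filter.

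**Figure D2:**
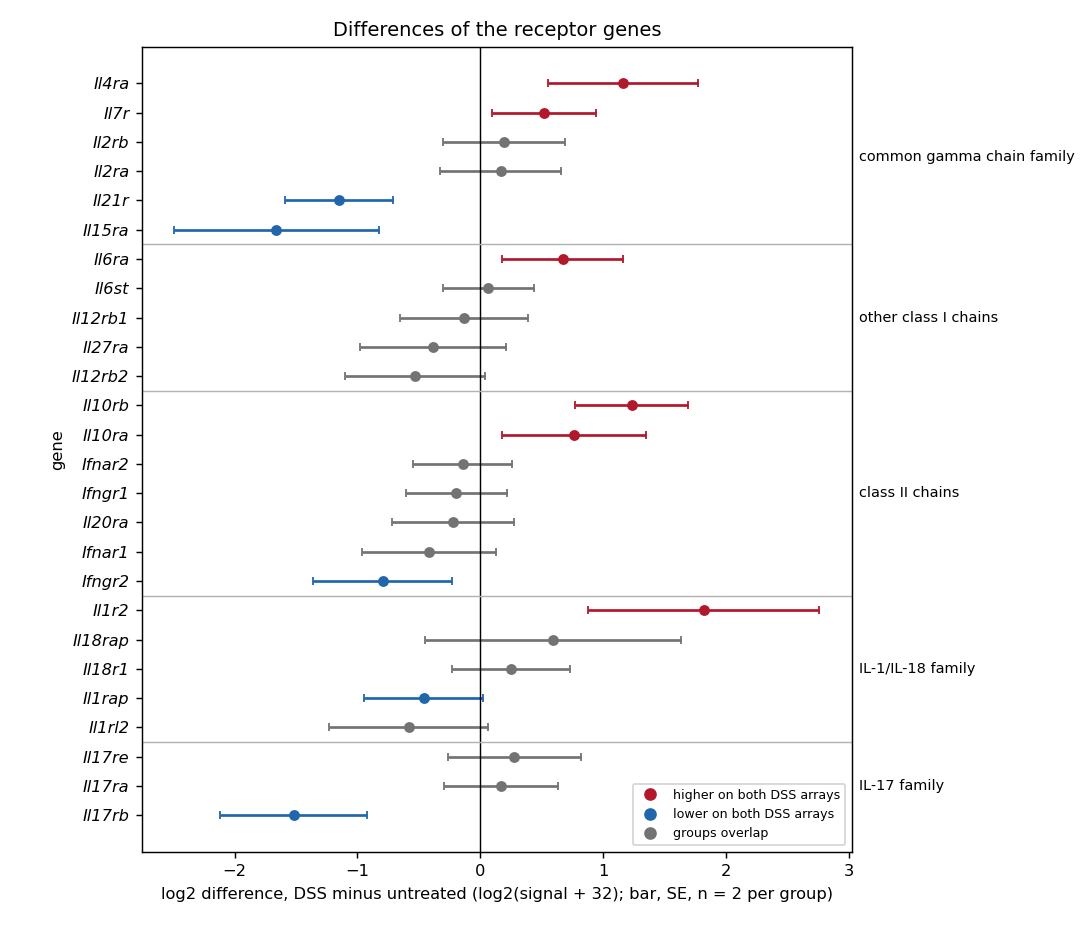
Log2 difference, DSS minus untreated, of the 26 tested receptor genes by family; points are estimates and bars their standard errors (n = 2 per group). Values run from -1.66 for Il15ra to 1.82 for Il1r2; 6 genes (red) were higher and 5 (blue) lower on both DSS arrays, and 15 (grey) overlapped.

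Of the IL-1 and IL-18 receptor family, 5 of 8 genes passed the filter, with 1 higher and 1 lower without overlap and a median difference of 0.25. Il1r2, the decoy receptor that binds IL-1 without signalling, had 416 and 190 on the DSS arrays and 15.5 and 136 on the untreated arrays. Both DSS values were the higher, at 1.82 ± 0.94 (limma adjusted p = 0.655), and without the first untreated array the difference was 0.91. Both untreated values were below the median of their array, so Il1r2 passed the filter on the DSS arrays alone. Neutrophils and macrophages are also known to carry Il1r2. Of 7 tested neutrophil markers, out of 12 on the array, 0 were higher and 2 lower on both DSS arrays. The lower ones, Mmp8 and Mpo, passed the filter on the untreated arrays alone, so their DSS values had to be lower. Of 17 macrophage and dendritic cell markers 16 were higher, some of which passed on the DSS arrays alone, as given above. Whether either cell type gave this signal was not tested. Il1r1, the signalling IL-1 receptor next to Il1r2 in the annotation, did not pass the filter. Its probe sets had 20.6 to 56.4 in DSS samples and 9.74 to 34.8 in untreated samples, below every array median.

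Il1rap, the accessory chain of the IL-1 and IL-33 receptors, had 438 and 229 in DSS samples and 447 and 451 in untreated samples. Both DSS values were the lower, the first by a small margin, at -0.46 ± 0.48 (limma adjusted p = 0.794). The other kept probe set of Il1rap gave 0.72 with overlap. The Il1rap probe sets that did not pass the filter gave 1.77, -0.77 and -0.60. Il18r1, the IL-18 binding chain, had 409 and 798 in DSS samples and 556 and 408 in untreated samples, overlapping at 0.25. Il18rap, the signalling partner of Il18r1 and its neighbour in the annotation, had 488 and 334 in DSS samples and 928 and 55.0 in untreated samples. The untreated arrays enclosed the DSS arrays, and the difference of 0.59 became 2.33 without the first untreated array (limma adjusted p = 0.0294) and -1.14 without the second. Il1rl2, the IL-36 receptor, overlapped at -0.58, and Il1rapl1 and Il1rapl2, known from neurons, did not pass the filter.

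Of the IL-17 receptor family, 3 of 5 genes passed, with 0 higher and 1 lower without overlap and a median difference of 0.17. Il17rb, which binds IL-25 and IL-17B, had 84.3 and 150 on the DSS arrays and 460 and 322 on the untreated arrays. Both DSS values were below the median of their array and well under both untreated values, at -1.52 ± 0.60 (limma adjusted p = 0.648), so Il17rb passed the filter on the untreated arrays alone. With 1 array left out at a time the difference lay between -1.84 and -1.20. Its sign was fixed by the filter, as given above. Il17rb has 1 probe set, and its promoter is printed above. Il17ra, the chain shared across the family, had 710 and 421 in DSS samples and 589 and 397 in untreated samples, overlapping at 0.17. Il17re, which binds IL-17C, overlapped at 0.28 on its brightest probe set, which ends in _s_at. The other kept probe sets of Il17re gave -0.41 with overlap and -1.36 without. Il17rc and Il17rd did not pass the filter.

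The 14 genes with no kept probe set had 24 probe sets, with signals of 4.02 to 312 and a median of 44.6 in DSS samples and 48.1 in untreated samples. Of these probe sets 2 were higher and 6 lower on both DSS arrays, where 9.87% and 27.7% of all 7932 probe sets of genes with none kept were higher and lower. Il22ra1, the IL-22 binding chain, had 16.2 and 4.02 in DSS samples and 153 and 312 in untreated samples, and it was named after its values were seen. Only the second untreated value was above the median of its array.

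Probe sets of 1 gene often differed in sign. Of the 12 receptor genes with at least 2 kept probe sets, 7 had differences of both signs (Ifnar2, Ifngr2, Il10rb, Il17re, Il1rap, Il4ra and Il6st) and 5 had a single sign (Ifnar1, Il18rap, Il2ra, Il2rb and Il6ra). The gap between a gene's lowest and highest difference was 3.29 for Ifngr2, 2.57 for Il4ra and 0.02 for Il2rb.

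**Figure D3:**
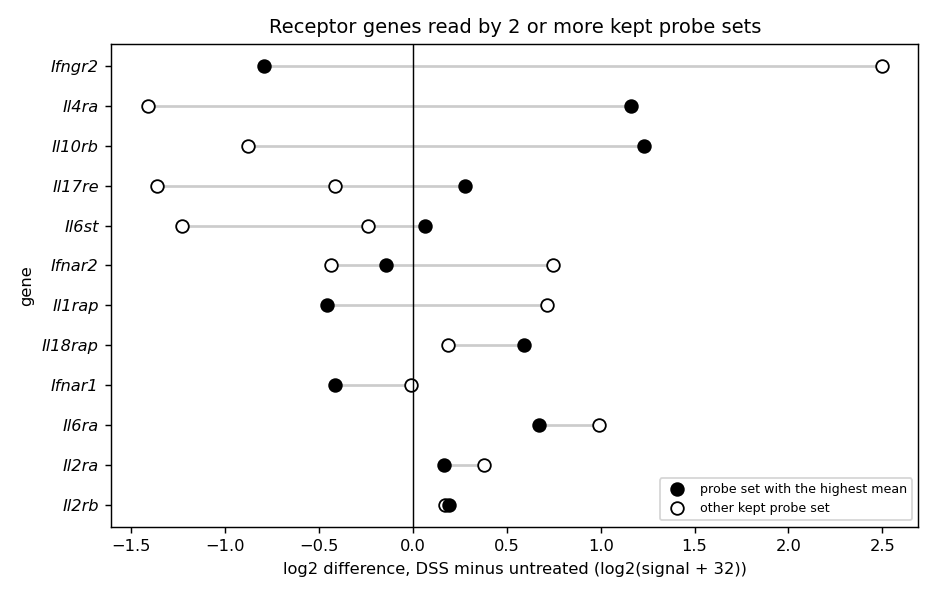
Log2 difference, DSS minus untreated, of every kept probe set of the 12 receptor genes that have at least 2; filled circles are the probe set with the highest mean signal, open circles the others. Lines cross 0 for 7 genes, with the widest gap for Ifngr2 (-0.80 and 2.50).

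The receptor genes called depended on the untreated array used. Without the first untreated array limma called Il10rb, Il18rap and Il27ra, and without the second it called Il21r (adjusted p = 0.0368) and Il4ra (adjusted p = 0.0407). Over all genes these fits called 1791 and 755. In each, the remaining untreated array has no replicate and is assumed to vary like the DSS arrays. Without either DSS array in turn 0 receptor genes were called.

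**Figure D4:**
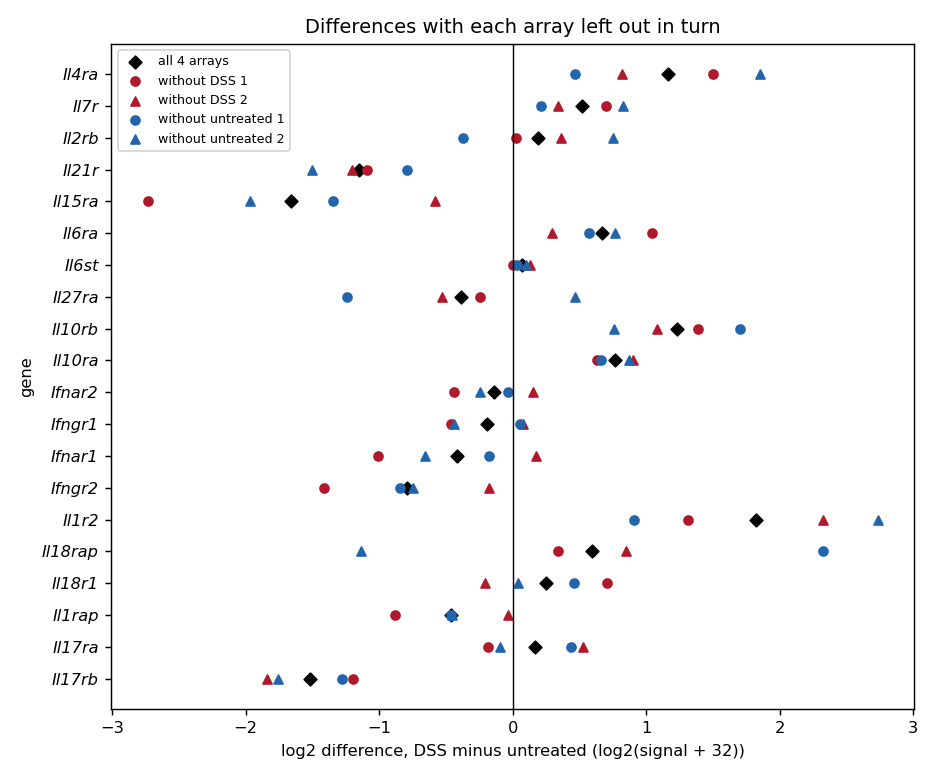
Log2 difference, DSS minus untreated, of the receptor genes given with values, over all 4 arrays (black) and with each array left out (red, a DSS array; blue, an untreated array). Il18rap moves between -1.14 and 2.33 and Il27ra between -1.24 and 0.47, while Il17rb stays between -1.84 and -1.20. Il17rb passed the filter on the untreated arrays alone, so its sign was fixed by the filter.

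Ligands and partners of the receptors were read in the same fit, which called 0 genes of each list. Beside the counts of these lists, the shares over all genes were 17.2% higher and 23.8% lower without overlap. Of 32 ligand genes on the array 12 were tested, with a median difference of 0.77, 5 higher and 3 lower without overlap. Il1a, among the 5 higher, passed the filter on the DSS arrays alone and supports nothing. Il1b, the ligand of Il1r1 and Il1r2, had 5862 and 7134 in DSS samples and 365 and 354 in untreated samples, at 4.05 ± 0.38 (limma adjusted p = 0.0823). The DSS values were far above the untreated ones, where Il1r1 itself was below every array median. Il1rn, the IL-1 receptor antagonist, had 752 and 788 in DSS samples and 222 and 361 in untreated samples (1.34 ± 0.44). Il18, the ligand of Il18r1, had 859 and 1170 in DSS samples and 668 and 219 in untreated samples (1.30 ± 0.57).

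Among 8 tested receptor chains with other names, 3 were higher and 2 lower without overlap, with a median of 0.86. Csf2rb, the beta chain shared by the IL-3, IL-5 and GM-CSF receptors, had 1719 and 1911 in DSS samples and 252 and 202 in untreated samples, at 2.84 ± 0.39 (limma adjusted p = 0.211). Csf2rb2, a close copy of Csf2rb that may share its signal, differed by 1.66 ± 0.49, while the alpha chains Il3ra and Il5ra did not pass the filter. Crlf2, the partner of Il7r in the receptor for thymic stromal lymphopoietin, had 6367 and 6205 in DSS samples and 3799 and 3613 in untreated samples (0.76 ± 0.36). Macrophages are known to express Il1b, Il1rn and Csf2rb, and the macrophage markers were higher on the same arrays. Whether such cells gave these signals was not tested, and array processing cannot be told apart from treatment.

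Downstream of the receptors, 19 kinase, adaptor and STAT genes had a median difference of 0.15, with 4 higher and 4 lower without overlap. Their summed signals were 49034 and 39684 in DSS samples and 39030 and 35229 in untreated samples. Stat6, activated by IL-4, differed by 0.99 ± 0.46, Irak2 of the IL-1 pathway by -0.72 ± 0.39 and Jak3, the kinase of the common gamma chain, by -0.74 ± 0.42. Of 16 inhibitors of these pathways, also with a median of 0.15, 2 were higher and 2 lower without overlap, and summed signals were 64769 and 62086 in DSS samples and 56957 and 55487 in untreated samples. Socs7, of the suppressor of cytokine signalling family, had 2106 and 1825 in DSS samples and 658 and 441 in untreated samples (1.80 ± 0.41). Pias2, of the protein inhibitor of activated STAT family, had 696 and 702 in DSS samples and 1979 and 1614 in untreated samples (-1.32 ± 0.38). Socs3, which restrains signalling through Il6st, had 7400 and 9643 in DSS samples and 4042 and 1131 in untreated samples (1.96 ± 0.61). The probe set of Socs3 ends in _x_at. Each gene of these lists was read on its brightest kept probe set alone.

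**Figure D5:**
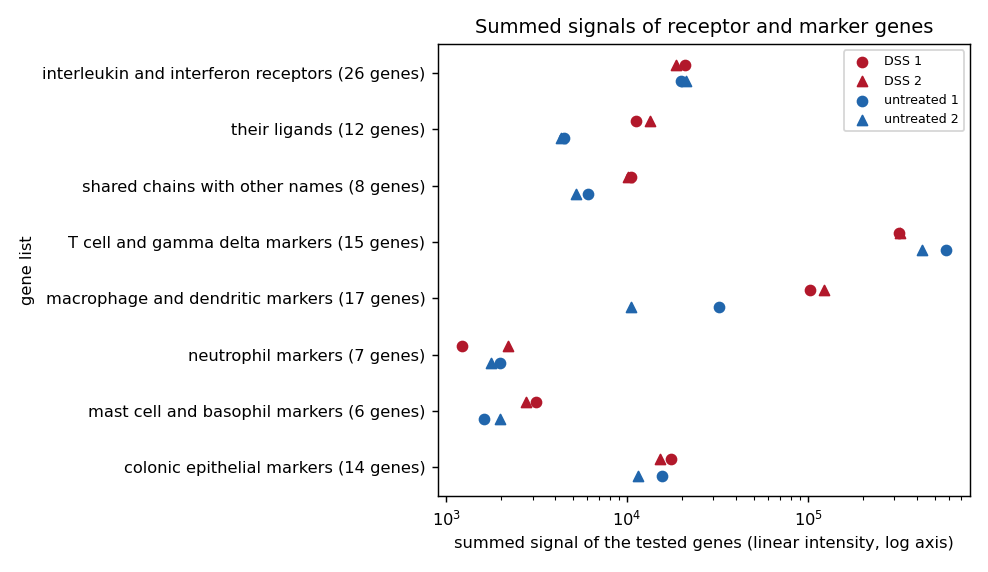
Summed signal (linear intensity, log axis) of the tested genes of each list on the 2 DSS arrays (red) and the 2 untreated arrays (blue). The 26 receptor genes sum to 20984 and 18566 on the DSS arrays and 19824 and 21131 on the untreated arrays, while ligands, other-named chains, macrophage markers and mast cell markers sum higher on both DSS arrays.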

How the data were processed

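Each array's file column holds 1 deposited intensity per probe set, on a linear scale. The submitters' processing notes name GCOS. Its version is not given in the sources used here, nor are its settings. Without the lowest and highest 2% of values, every array's deposited intensity averaged 500.

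Of 45101 probe sets a platform table gave 34958 a single gene symbol, 932 several and 9211 none, and 13 controls were left out of the first. For every gene, of 12424 in all, the probe set passing the filter with the highest mean log2(signal + 32) was used. Limma 3.58.1 in R 4.3.3 compared the groups (lmFit and eBayes, intensity trend, no other term), adjusted over all genes at 0.05. The fit was tested on simulated data only for how close its mean estimates came to planted changes, not for how many genes it calls. With 2 arrays per group an exact two-sided permutation test cannot go below p = 0.333, and the number of arrays limits the precision.

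Signals on every array were given for receptor genes that passed limma, were 2-fold apart on all arrays, were among the brightest genes tested or are known for these lymphocytes. Il17rb, Il18rap, Il1r2, Il1rap, Il4ra and Il6ra were added after their values were seen. From other lists at most the 3 genes with the smallest p were named, and Il1a and Il17a were added after their values were seen. Members and lists were chosen with earlier results of these data known. Replicate numbers were not taken as pairs, since the labels state no pairing. There were 16 other settings, for normalization, low values, the choice of probe sets, limma's variance estimate, pairing and each array in turn.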

Additional observations from a re-analysis of the deposited data

How the results depend on the processing

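Over the 16 other settings limma called 0 receptor genes, except without an untreated array (0 to 3 with each array left out). Over all genes it called 1 when signal above the median was required on all 4 arrays, 3 with a gene's kept probe sets averaged, and 0 to 1791 with each array left out. With the replicate number as a block (replicate block) it called 67 genes, 0 of them receptor genes, and deviations of same-numbered arrays correlated at 0.05. Receptor genes at least 2-fold higher on both DSS arrays numbered 0 to 2 with each array left out, and those at least 2-fold lower 1 to 2, while over all genes these counts were 367 to 1336 and 665 to 1064. With a pseudocount of 8 there was 1 lower (Il17rb), and with no filter 1 (Il22ra1). Averaging probe sets turned Ifngr2 to 0.85, Il1rap to 0.13, Il4ra to -0.13, Il6st to -0.47 and Ifnar2 to 0.06, since their probe sets differ in sign. Why they differ was not tested. Signal was above the array median on all 4 arrays for 18 receptor genes, and limma called 0 of these when they were tested with the 8466 genes of which that held.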

Other observations

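Some ligand genes outside the naming rule are given here, chosen after their values were seen. Il17a, the ligand of receptors that contain Il17ra, had 368 and 1529 in DSS samples and 374 and 239 in untreated samples, so the groups overlapped and the high signal was on the second DSS array alone. Il1a, a ligand of Il1r1 and Il1r2, had 394 and 328 in DSS samples and 175 and 25.4 in untreated samples (1.84 ± 0.81, limma adjusted p = 0.648). Both untreated values were below the median of their array, so Il1a passed the filter on the DSS arrays alone. The filter therefore favoured higher DSS values, and Il1a supports nothing.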
